A study of Mus musculus with 12 samples.

Results

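DNA repair genes were followed across the livers and liver tumors of mice with and without Setd2. The set held 38 genes of mismatch repair, homologous recombination, end joining, excision repair, damage signalling and crosslink repair, chosen by name, and all 38 were found among the 24553 entries of the deposited tables. RNA had been measured in 12 libraries, 3 in each of 4 groups. KO tumors and WT tumors came from Setd2 knockout and wild-type (WT) male mice that had received 1 intraperitoneal dose of diethylnitrosamine (DEN), a liver carcinogen, at 25 mg/kg and 2 weeks of age, and were taken at 8 months. KO liver and WT liver were normal tissue of 8-month-old male mice of the same genotypes that had received no DEN. Genotype was the only allele difference that the labels gave. Titles abbreviate the knockout as cKO, and do not state which exons were deleted, in which cells, or by which Cre line. Whether the 12 libraries are 12 animals is not stated, so the p-values speak of the spread among these libraries. Tumor and normal tissue differed in DEN exposure as well as in kind, and those effects cannot be told apart.

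A cell repairs each kind of DNA lesion with its own set of proteins. Mismatch repair corrects replication errors, base excision and single-strand break repair handle small base lesions and nicks, and nucleotide excision repair removes bulky adducts. Breaks across the duplex are rejoined by end joining or copied from the sister chromatid by homologous recombination. Setd2 encodes the enzyme that places trimethylation on lysine 36 of histone H3 (H3K36me3), a mark that the mismatch repair protein Msh6 and the chromatin protein Psip1 (LEDGF) bind through PWWP domains. In liver, metabolized DEN ethylates DNA bases, so several of these pathways act on its lesions.

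Levels are in FPKM (mapped fragments scaled to transcript length and to library size), as the authors deposited them, and differences are log2 differences of FPKM + 1 ± SE from limma, which understate the change of genes with low FPKM. Tests covered genes with 1 FPKM or more in 3 or more of the 12 libraries, and a gene was called when its p-value, adjusted by Benjamini-Hochberg over all 11671 genes tested, was below 0.05. Of the 38 repair genes, 27 were tested and 19 of these had an FPKM of 1 or more in all 12 libraries. Lig1 and Brca1 passed the filter through tumors alone, so they had to differ between tumor and liver in level. Rad51b reached an FPKM of 1 in all 6 tumors and in 2 livers, both KO, and would not have passed on livers alone. The same holds for Chek2 (3 tumors and 1 liver) and Pms1 (4 tumors and 2 livers). FPKM summed to between 423498 and 719538 per library, the sequencing depth is unknown, and libraries resembled each other least among KO tumors (Pearson's r across genes of 0.924 to 0.942, against 0.949 or more in the other groups). Setd2 was at 1.90 to 3.14 in KO tumors, 3.61 to 4.40 in WT tumors, 1.32 to 1.93 in KO livers and 3.84 to 4.84 in WT livers. Its difference passed the test in liver (-1.05 ± 0.14, adjusted p = 0.0108) and not in tumors (-0.57 ± 0.19, adjusted p = 0.188), where the KO tumors nevertheless all lay below the WT tumors. The hepatocyte markers Apoa1 and Hnf4a were present in all 12 libraries, but the list of 12 hepatocyte markers was not level between groups. In KO over WT liver 1 was higher and 3 lower (median -0.53), beside 9.33% and 8.77% of all genes, with Hnf4a lower (-0.89, adjusted p = 0.0216). In WT tumors over WT liver 1 was higher and 3 lower (median -0.82), beside 8.01% and 8.96% of all genes. Hnf4a was lower (-0.91, adjusted p = 0.0185) and Apoa1 higher (1.24, adjusted p = 0.0267). With limma none was called in KO over WT tumors (median -1.12, 4 at an unadjusted p below 0.05) or in KO tumors over KO liver (median -0.60, 3 at an unadjusted p below 0.05), and the part of this shift in the repair gene results was not tested.

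The 250 bases before a RefSeq transcript start are shown for 4 of the genes called in at least 1 comparison: Rad51b and Lig1, higher in tumors, and Xrcc1 and Lig3, which differed in opposite directions in KO liver. The RefSeq starts used for Lig1 and Xrcc1 lie downstream of the first base of those genes in GENCODE, whose spans are given with their values, so these windows fall inside the GENCODE spans. They are RefSeq sequences on GRCm38.p6, all on the plus strand, at chr12:79297032-79297281 for Rad51b, chr7:13278576-13278825 for Lig1, chr7:24546449-24546698 for Xrcc1 and chr11:82780859-82781108 for Lig3. Capitals mark matches, on either strand, to the CCAAT box (CCAAT) or the GC box (GGGCGG).
Rad51b: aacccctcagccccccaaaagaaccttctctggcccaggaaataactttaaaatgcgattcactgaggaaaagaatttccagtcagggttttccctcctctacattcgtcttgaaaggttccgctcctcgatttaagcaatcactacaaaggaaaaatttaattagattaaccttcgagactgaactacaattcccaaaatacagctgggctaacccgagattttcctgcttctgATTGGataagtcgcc
Lig1: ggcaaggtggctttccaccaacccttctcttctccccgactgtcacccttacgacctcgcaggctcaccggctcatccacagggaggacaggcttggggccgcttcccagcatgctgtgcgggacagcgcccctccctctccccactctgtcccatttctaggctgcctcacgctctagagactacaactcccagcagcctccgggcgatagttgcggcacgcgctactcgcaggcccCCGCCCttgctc
Xrcc1: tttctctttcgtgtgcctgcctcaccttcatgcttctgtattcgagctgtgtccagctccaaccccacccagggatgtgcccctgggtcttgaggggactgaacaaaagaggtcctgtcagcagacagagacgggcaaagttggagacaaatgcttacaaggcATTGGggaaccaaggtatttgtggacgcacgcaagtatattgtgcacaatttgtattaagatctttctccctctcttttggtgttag
Lig3: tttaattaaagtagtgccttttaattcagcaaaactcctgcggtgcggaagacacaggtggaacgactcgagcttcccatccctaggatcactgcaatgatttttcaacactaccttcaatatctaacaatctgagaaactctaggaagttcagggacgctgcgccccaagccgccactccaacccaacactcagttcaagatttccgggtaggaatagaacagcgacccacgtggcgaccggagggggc
The Rad51b and Xrcc1 windows each held 1 CCAAT box, written here as its complement, the Lig1 window held 1 GC box, and the Lig3 window held neither. An E2F-type motif (TTTNNCGC), the kind bound by factors of S-phase genes, was in none of these 4 windows. Of the 35 RefSeq promoters of the repair genes, which belong to 28 of the 38 genes, 5 held the E2F-type motif, 16 a CCAAT box and 19 a GC box. The shares among all 32851 mouse promoters in windows of the same length were 4.28%, 33.8% and 32.7%. No bases were shared between matches in the 4 windows shown.

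**Figure D1:**
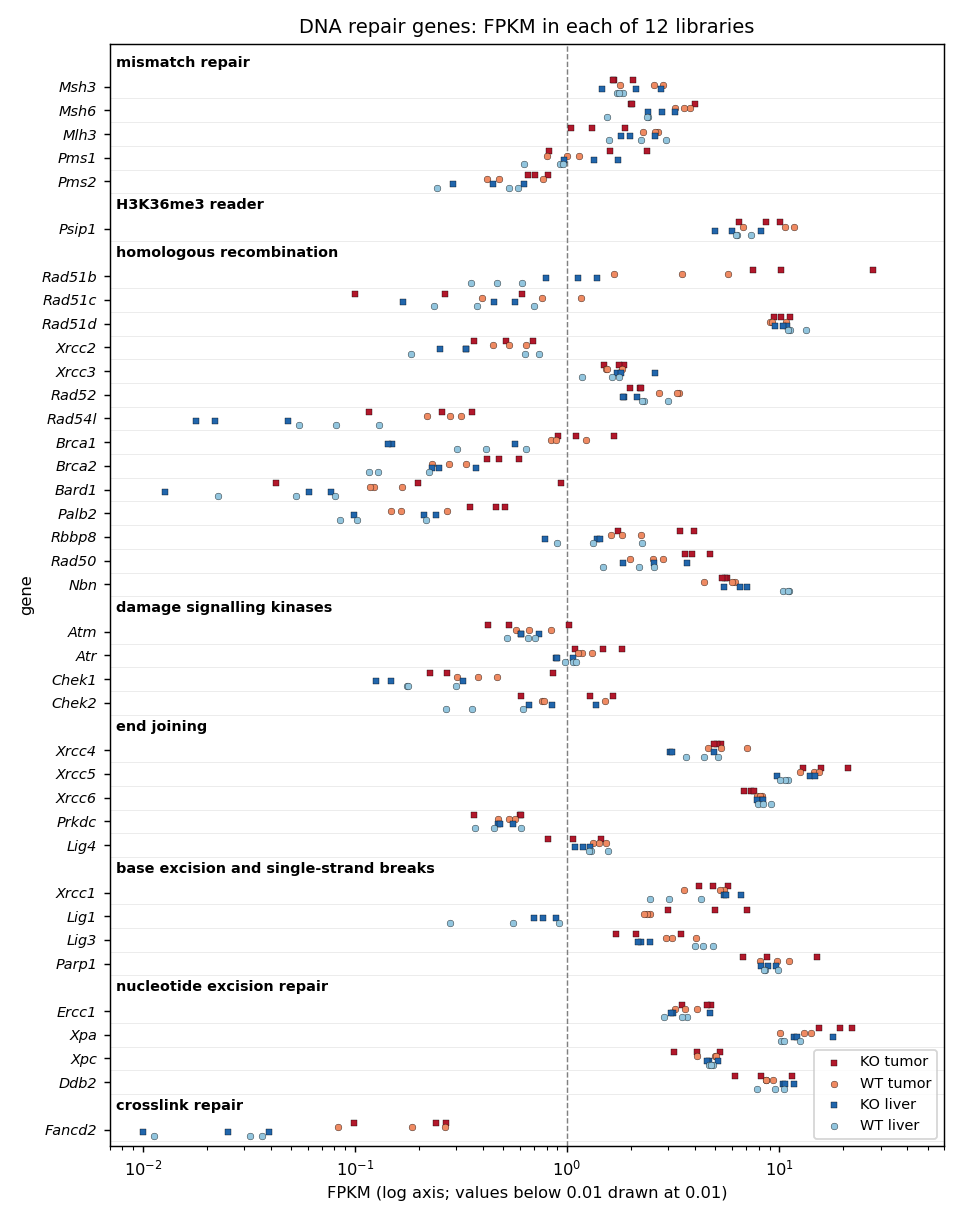
FPKM of the 38 repair genes (log axis) in each of 12 libraries, grouped by role, with KO tumors and WT tumors above KO livers and WT livers in each line. The dashed line is at an FPKM of 1, and values below 0.01 are drawn at 0.01. Rad51b and Lig1 separate tumors from livers, Nbn separates WT livers from the other 9 libraries, and most other genes overlap between groups.

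Most repair genes were expressed at low levels. Xrcc5, Rad51d and Xpa were among the most abundant, at 9.05 FPKM or more in every library, although Rad51d shared its entry with the neighboring gene Rffl. The 11 genes that were not tested lay between 0 and 1.16 FPKM, and include Brca2, its partner Palb2, the Brca1 partner Bard1, the kinases Atm, Chek1 and Prkdc, and the crosslink repair gene Fancd2. FPKM summed over the 38 genes was 151, 178 and 136 in KO tumors, 123, 139 and 140 in WT tumors, 119, 118 and 131 in KO livers, and 126, 117 and 117 in WT livers. The tumor and liver sums did not overlap in KO mice and overlapped in WT mice, and KO tumor 2 had the highest sum. Rad51b alone gave 10.2, 27.6 and 7.49 of the KO tumor sums and 1.39, 0.798 and 1.12 of the KO liver sums. Without that gene the tumor and liver sums of KO mice overlap as well.

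In normal liver, where genotype alone differed, 4 of the 27 tested genes were called between KO and WT. Xrcc1, the scaffold of single-strand break repair, and Rad51b, a gene of homologous recombination, were higher in KO liver. Lig3, the ligase that Xrcc1 binds, and Nbn, a subunit of the complex that senses broken ends, were lower. The 2 higher genes stand beside 9.33% of all genes called higher, and the 2 lower genes beside 8.77% called lower. These 4 genes are 14.8% of those tested, beside 18.1% of all genes called in the same comparison, and the median difference was 0.01 for the repair genes and 0.03 for all genes. The groups did not overlap for 9 of the 27 genes, beside 42.6% of all genes, with 5 higher in KO liver beside 21.9% and 4 lower beside 20.7%.

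In DEN tumors none of the 27 genes was called by limma between KO and WT, beside 0.0771% of all genes (9 of 11671), with 0.0343% higher and 0.0428% lower. At an unadjusted p below 0.05 there were 6 repair genes, of which Rad51b (1.70 ± 0.52), Lig1 (0.77 ± 0.26), Xpa (0.57 ± 0.20) and Rad50 (0.56 ± 0.17) had positive differences, and Mlh3 (-0.56 ± 0.18) and Rad52 (-0.40 ± 0.15) negative ones. KO and WT tumors did not overlap for 7 of the 27 genes, beside 23.9% of all genes, with 4 higher in KO tumors beside 13.8% and 3 lower beside 10.1%. The difference between the KO effect in tumor and that in liver, fitted on all 12 libraries, passed for none of the 27 genes with limma either (3 at an unadjusted p below 0.05), beside 2.08% of all genes (1.15% with a positive and 0.934% with a negative difference).

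**Figure D2:**
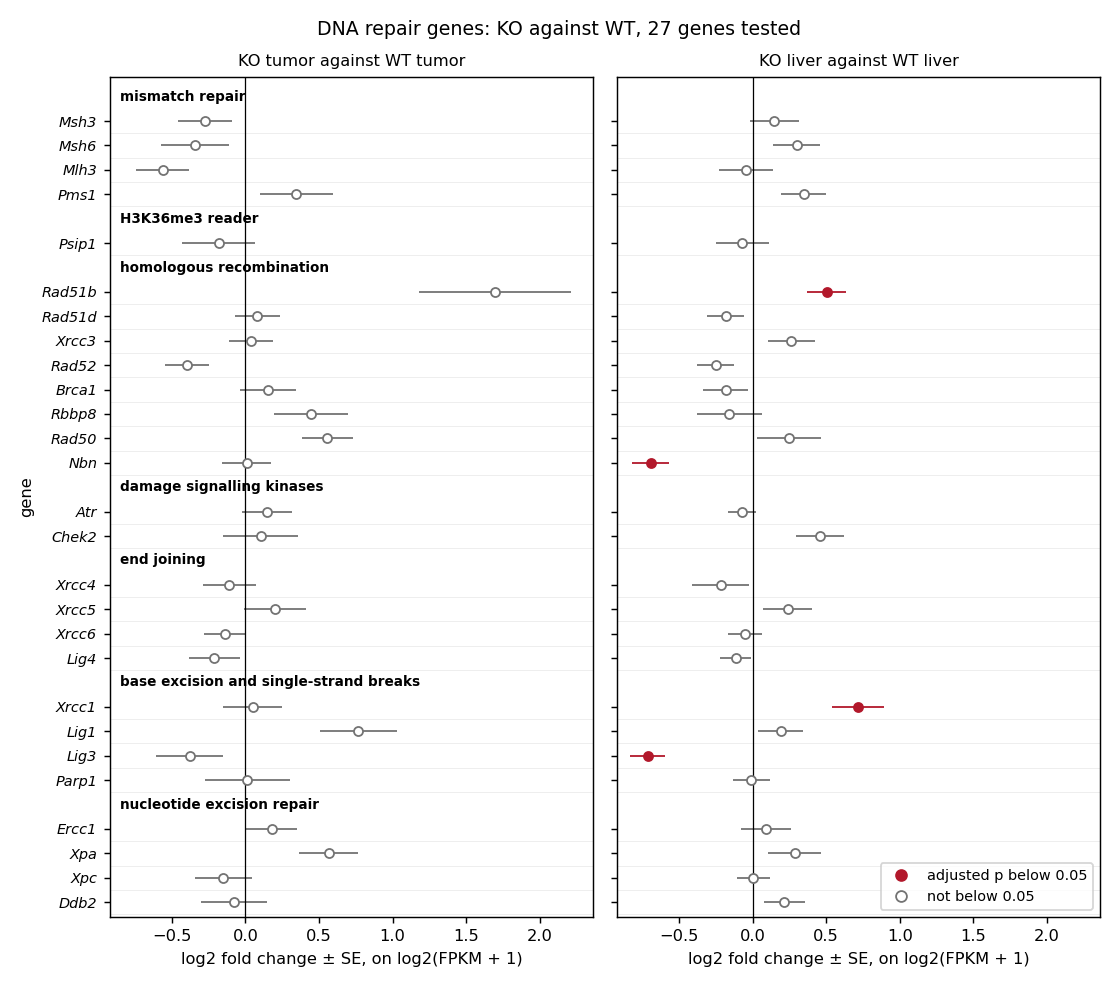
Difference between KO and WT (log2 of FPKM + 1) for the 27 tested repair genes, in tumors (left) and normal liver (right). Points are estimates, bars are ± SE from limma (n = 3 libraries per group), and filled points have an adjusted p below 0.05. Xrcc1 and Rad51b lie above 0 and Lig3 and Nbn below it in liver, and no point is filled in tumors.

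Between tumor and normal liver, Lig1, the ligase that joins Okazaki fragments at replication forks, and Rad51b were higher in tumors of both genotypes. Nbn was lower in WT tumors than in WT liver, and Brca1, which directs broken ends into recombination, was higher in KO tumors than in KO liver. In WT mice 3 of 27 genes were called, beside 17.0% of all genes, with 2 higher in tumors beside 8.01% and 1 lower beside 8.96%. In KO mice 3 of 27 were called, beside 14.3%, with 3 higher in tumors beside 9.09% and 0 lower beside 5.17%. Of these calls, Lig1 and Rad51b in both genotypes and Brca1 in KO mice are of genes tested because of their tumor levels. Nothing is therefore read from the counts or from their direction. The 4 comparisons share groups in pairs, so they are not independent. The median difference was 0.14 in WT mice, where that of all genes was -0.04, and 0.11 in KO mice, where that of all genes was -0.02. Groups did not overlap for 9 of the 27 genes in WT mice, beside 42.3% of all genes, with 7 higher in tumors beside 18.5% and 2 lower beside 23.8%. They did not overlap for 6 in KO mice, beside 41.1%, with 5 higher in tumors beside 21.3% and 1 lower beside 19.8%. The higher genes include Lig1, Rad51b and Brca1 in both genotypes and Chek2 in WT mice, all tested because of their tumor levels. Nothing is therefore read from these medians and counts either. When each library was rescaled to a common sum, the median over all genes moved up by 0.25 in WT mice and by 0.36 in KO mice. WT mice then had 6 calls, 5 higher and 1 lower, against 2 higher and 1 lower with the values as deposited.

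**Figure D3:**
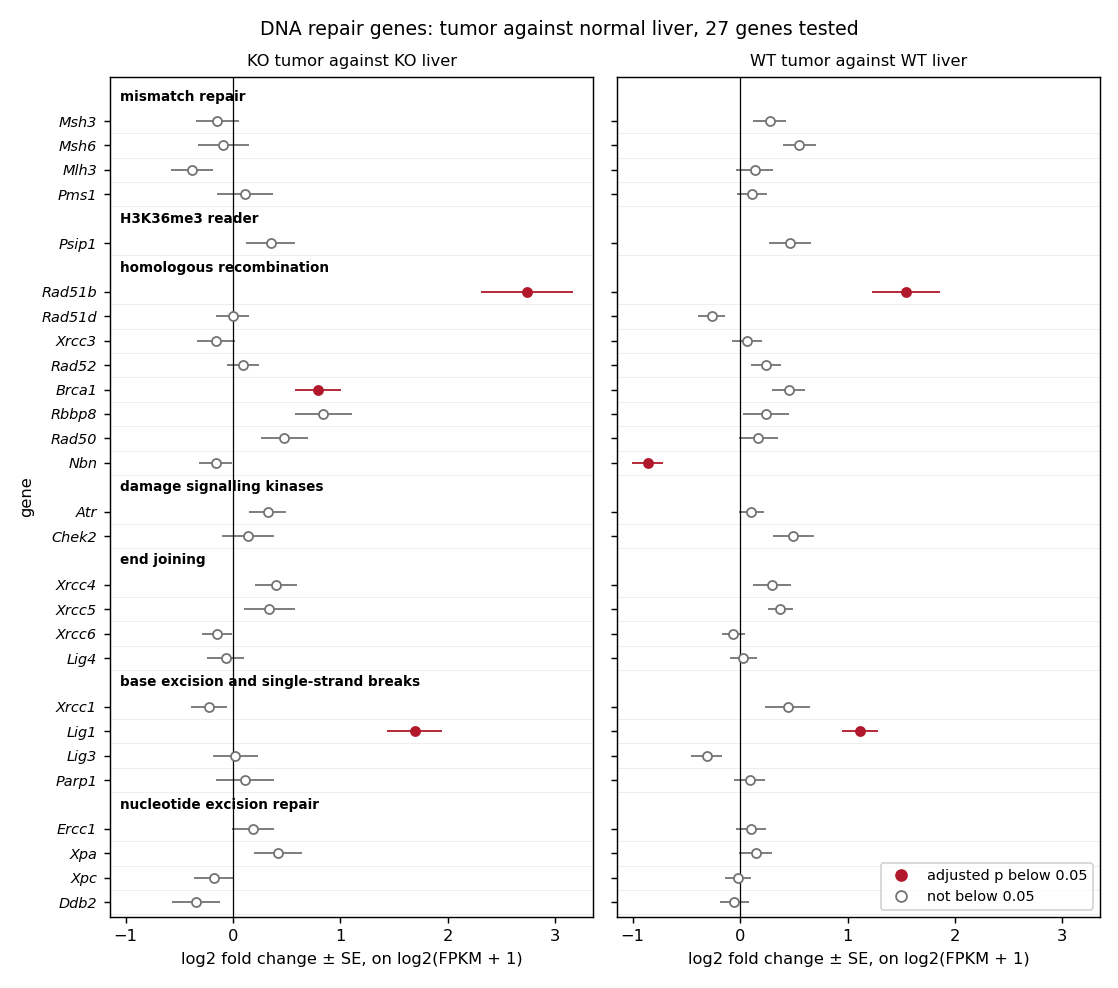
Difference between tumor and normal liver (log2 of FPKM + 1) for the 27 tested repair genes, in KO mice (left) and WT mice (right). Points are estimates, bars are ± SE from limma (n = 3 libraries per group), and filled points have an adjusted p below 0.05. Rad51b and Lig1 are filled on the positive side in both panels, Brca1 on the positive side in KO mice and Nbn on the negative side in WT mice.

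Mismatch repair and the readers of H3K36me3 gave no call with the values as deposited. Msh6, the partner that lets the mismatch sensor see single-base errors, was at 4.01, 1.99 and 2.03 FPKM in KO tumors, 3.79, 3.56 and 3.22 in WT tumors, 3.23, 2.80 and 2.41 in KO livers, and 2.41, 1.55 and 2.38 in WT livers. KO livers lay just above WT livers and WT tumors above WT livers, while KO tumors overlapped each of the other groups. Its difference was 0.30 ± 0.16 between KO and WT liver (adjusted p = 0.212), -0.34 ± 0.23 between KO and WT tumors (adjusted p = 0.499) and 0.55 ± 0.16 between WT tumors and WT liver (adjusted p = 0.0519). Msh3, which detects small loops, stayed between 1.46 and 2.84 FPKM in the 12 libraries, with overlapping groups in every comparison. Mlh3, a subunit of a nicking complex whose entry also held Mir6938, was at 1.04, 1.31 and 1.86 FPKM in KO tumors and 2.29, 2.68 and 2.59 in WT tumors. These did not overlap, and the difference did not pass (adjusted p = 0.185). Pms1 differed by 0.35 ± 0.15 between KO and WT liver (adjusted p = 0.142), and Pms2, another nicking subunit, was below 1 FPKM in every library and was not tested.

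Psip1, which brings the end-resection factor Rbbp8 (CtIP) to H3K36me3-marked chromatin, was at 10.04, 8.62 and 6.46 FPKM in KO tumors, 6.77, 10.7 and 11.7 in WT tumors, 5.96, 8.17 and 4.97 in KO livers, and 6.29, 6.24 and 7.34 in WT livers. The groups overlapped in all 4 comparisons. Its difference was -0.07 ± 0.18 between KO and WT liver (adjusted p = 0.80) and -0.18 ± 0.25 between KO and WT tumors (adjusted p = 0.748). Without WT tumor 1, the WT tumors exceeded WT liver by 0.68 (adjusted p = 0.0184), against 0.46 ± 0.20 with it (adjusted p = 0.146). That difference also passed with libraries rescaled to a common sum (0.73, adjusted p = 0.0266) and with array weights (0.61, adjusted p = 0.0194). Of the exon length of Psip1, 9.50% overlaps Snapc3 on the other strand, and reads from both could not be separated because the library kit did not keep the strand.

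Among the genes of homologous recombination, Rad51b (chr12:79297282-79814690, GRCm38) had the widest range of all members. It was at 10.2, 27.6 and 7.49 FPKM in KO tumors, 1.66, 5.71 and 3.46 in WT tumors, 1.39, 0.798 and 1.12 in KO livers, and 0.351, 0.612 and 0.469 in WT livers. The 4 groups did not overlap at all, in the order KO tumor, WT tumor, KO liver and WT liver, and KO tumor 2 was the highest library. Rad51b rose in KO tumors over KO liver (2.74 ± 0.43, adjusted p = 0.0135), in WT tumors over WT liver (1.55 ± 0.32, adjusted p = 0.0210) and in KO liver over WT liver (0.50 ± 0.13, adjusted p = 0.0444). The tumor calls are of a gene tested because of its tumor levels, so nothing is read from their direction. Between KO and WT tumors the difference did not pass (adjusted p = 0.169), nor did the difference between the genotype effects in tumor and liver (1.20 ± 0.59, adjusted p = 0.256).

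The liver call of Rad51b was held in 9 of 16 alternative settings, with differences of 0.15 (pseudocount 5) to 1.05 (pseudocount 0.1) and adjusted p up to 0.465, in 1 fit of all 12 libraries. It was kept without KO liver 2 and lost without any 1 of the other 5 libraries (adjusted p = 0.0715 to 0.126). In WT mice the tumor call was lost without WT tumor 3 (0.0521) or without WT liver 1, 2 or 3 (0.0638, 0.0600 and 0.0816), and in KO mice without KO liver 2 or 3 (0.0650 and 0.0622). Without KO tumor 2, the difference between KO tumors and KO liver was 2.22 (adjusted p = 0.00785).

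Markers of bile duct cells were summed beside Rad51b. The summed FPKM of 8 cholangiocyte markers was 565, 3523 and 268 in KO tumors, 65.5, 643 and 385 in WT tumors, 71.8, 79.2 and 73.9 in KO livers, and 36.9, 130 and 44.2 in WT livers. The KO tumors, the WT tumors and the WT livers each ranked alike by this sum and by Rad51b, and the KO livers ranked in the reverse order. Between 84.2% and 99.5% of each sum came from Spp1 (osteopontin), a secreted protein gene singled out after its values were seen. The other 7 markers summed to 11.6, 18.6 and 13.8 in KO tumors, 5.01, 10.6 and 7.495 in WT tumors, 5.23, 12.5 and 9.60 in KO livers, and 3.96, 5.96 and 3.05 in WT livers. By this second sum the WT tumors still ranked as by Rad51b and the KO livers in reverse, but the KO tumors and the WT livers ranked otherwise. No marker of the list was at 0 in all libraries of a group. The defining marker Krt19 was at 1.04, 1.01 and 5.13 FPKM in KO tumors, in another order than Rad51b, and at 0.997 to 5.54 in KO livers. It was at 0.168 to 0.555 in WT tumors, below the 0.602 to 1.16 of WT livers, whereas Rad51b was higher in WT tumors. The part of these cells in the Rad51b result was not tested, and in bulk tissue fewer cells of a type and less RNA per cell cannot be told apart.

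Markers of other cell types differed between groups in several ways. Of 15 macrophage and Kupffer cell markers, 8 were higher in KO tumors than in KO liver, and the 15 summed to 677 to 906 FPKM in KO tumors, 194 to 553 in WT tumors, 289 to 406 in KO livers and 305 to 473 in WT livers. In KO tumors over KO liver 11 of the differences were positive and 4 negative. Between KO and WT tumors limma called 1 higher and 0 lower, with 8 at an unadjusted p below 0.05 (median 1.17, 13 positive and 2 negative). The Kupffer cell marker Clec4f was at 12.5, 2.55 and 89.7 FPKM in KO tumors and 48.6, 34.6 and 32.1 in KO livers. Of 10 stellate cell and fibroblast markers, 5 were higher in KO tumors than in KO liver and 3 in WT tumors than in WT liver, with sums of 189 to 280, 70.1 to 87.9, 77.5 to 129 and 47.2 to 74.0 FPKM in KO tumors, WT tumors, KO livers and WT livers. Between KO and WT tumors limma called none of these 10, with 7 at an unadjusted p below 0.05 (median 1.26, 9 positive and 1 negative). No marker of either list was at 0 in all libraries of a group. Endothelial markers (10) summed to 73.4 to 107 FPKM in KO tumors, 67.1 to 113 in WT tumors, 94.9 to 129 in KO livers and 99.8 to 118 in WT livers, which overlap. Single markers still differed in both directions. Among the 9 tested, 2 were higher and 1 lower in WT tumors than in WT liver. In KO tumors over KO liver 2 were higher and 0 lower, with differences from -2.79 to 1.99. B and plasma cell markers (7) summed to 11.7 to 21.5 in KO tumors, 28.4 to 63.4 in WT tumors, 5.63 to 11.5 in KO livers and 2.84 to 5.72 in WT livers, highest in WT tumors, where 3 of the 4 tested were higher than in WT liver. T and NK cell markers (13) summed to 7.56 to 43.7 in KO tumors, 5.03 to 22.4 in WT tumors, 5.06 to 7.19 in KO livers and 2.59 to 5.97 in WT livers, and limma called none of the 4 tested in any comparison (at most 1 at an unadjusted p below 0.05). Neutrophil markers (8) summed to 22.8 to 60.8 in KO tumors, 9.06 to 10.4 in WT tumors, 8.40 to 40.5 in KO livers and 7.24 to 30.7 in WT livers, again with no call among 4 by limma, although all 4 had an unadjusted p below 0.05 in KO over WT tumors. Of all genes, 9.09% were called higher in KO tumors over KO liver, 8.01% in WT tumors over WT liver and 0.0343% in KO over WT tumors. The shares called lower were 5.17%, 8.96% and 0.0428%. The part of these cells in the tumor results was not tested.

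Nbn (chr4:15957925-15992589, GRCm38), the adaptor through which the end-sensing complex calls in the kinase Atm, showed the reverse picture. It was at 5.69, 5.56 and 5.36 FPKM in KO tumors, 4.44, 6.18 and 5.996 in WT tumors, 7.02, 6.52 and 5.46 in KO livers, and 10.4, 11.1 and 10.9 in WT livers. All 9 libraries that were KO, tumor or both lay below all 3 WT livers. Nbn fell in KO liver (-0.69 ± 0.13, adjusted p = 0.0186) and in WT tumors (-0.86 ± 0.14, adjusted p = 0.0116), a pair of comparisons that share the WT livers. KO tumors differed by -0.16 ± 0.15 from KO liver (adjusted p = 0.495) and by 0.01 ± 0.17 from WT tumors (adjusted p = 0.981). The difference between the genotype effects in tumor and liver was 0.70 ± 0.19 and missed the threshold (adjusted p = 0.0751), and it was 0.72 without KO tumor 3 (adjusted p = 0.0486). The KO liver call was lost without WT liver 2 (0.0560) or WT liver 3 (0.0711), and the WT tumor call without WT liver 3 (0.0536).

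Rad50, which tethers broken ends beside Nbn, moved otherwise. It was at 4.74, 3.86 and 3.57 FPKM in KO tumors, 2.53, 1.98 and 2.82 in WT tumors, 2.57, 1.84 and 3.67 in KO livers, and 2.58, 1.48 and 2.18 in WT livers. KO tumors lay above WT tumors, and the 2 liver groups overlapped. Its difference between KO and WT tumors did not pass (adjusted p = 0.178).

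Brca1 (chr11:101488764-101551955, GRCm38) was at 1.66, 1.10 and 0.909 FPKM in KO tumors, 1.23, 0.837 and 0.887 in WT tumors, 0.569, 0.149 and 0.143 in KO livers, and 0.637, 0.304 and 0.415 in WT livers. Tumors lay above livers of either genotype, and no liver reached the FPKM of 1 that the filter asked for. Its rise in KO tumors (0.79 ± 0.21, adjusted p = 0.0498) sat at the threshold. It was called in 6 of 15 alternative settings, with differences of 0.23 (pseudocount 5) to 1.91 (pseudocount 0.1), and was lost for example with quantile normalization (0.52, adjusted p = 0.123). Of the leave-one-out fits it was kept without KO tumor 3 alone. Removal of any 1 of the other 5 libraries, KO tumors 1 and 2 and all KO livers, ended it (adjusted p = 0.0764 to 0.161). In WT mice the difference was 0.45 ± 0.15 (adjusted p = 0.0817).

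Rbbp8, which starts end resection, was at 3.97, 3.41 and 1.73 FPKM in KO tumors and 1.39, 1.42 and 0.790 in KO livers. The groups did not overlap, and the difference of 0.84 ± 0.26 missed the threshold (adjusted p = 0.0724). Without KO tumor 3 it was 1.10 (adjusted p = 0.0127). Rad52, an annealing protein, was lower in KO than in WT libraries in both tissues without overlap, at 1.98 to 2.22 FPKM in KO tumors, 2.72 to 3.38 in WT tumors, 1.84 to 2.14 in KO livers and 2.25 to 2.98 in WT livers, and passed in neither (adjusted p = 0.241 in tumors and 0.194 in liver). Xrcc3, which also acts in homologous recombination, overlapped between groups in all 4 comparisons.

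The untested recombination genes had low values that nevertheless separated some groups. Brca2, a mediator of homologous recombination, was at 0.417 to 0.593 FPKM in KO tumors, 0.230 to 0.333 in WT tumors, 0.232 to 0.373 in KO livers and 0.116 to 0.223 in WT livers. Its KO values were above the WT values in both tissues, and its tumor values above the liver values in both genotypes, without overlap. The margins were narrow, with the lowest KO liver (0.232) and the lowest WT tumor (0.230) just above the highest WT liver (0.223). Palb2, which links Brca2 to Brca1, was at 0.348 to 0.508 FPKM in KO tumors against 0.147 to 0.273 in WT tumors. Rad54l, a motor protein of strand invasion, was at 0.116 to 0.355 in KO tumors, 0.219 to 0.315 in WT tumors, 0.0178 to 0.0483 in KO livers and 0.0545 to 0.130 in WT livers, and 15.4% of its exon length overlaps Lrrc41 on the other strand. At these levels no test was made, and the depth behind them is unknown.

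**Figure D4:**
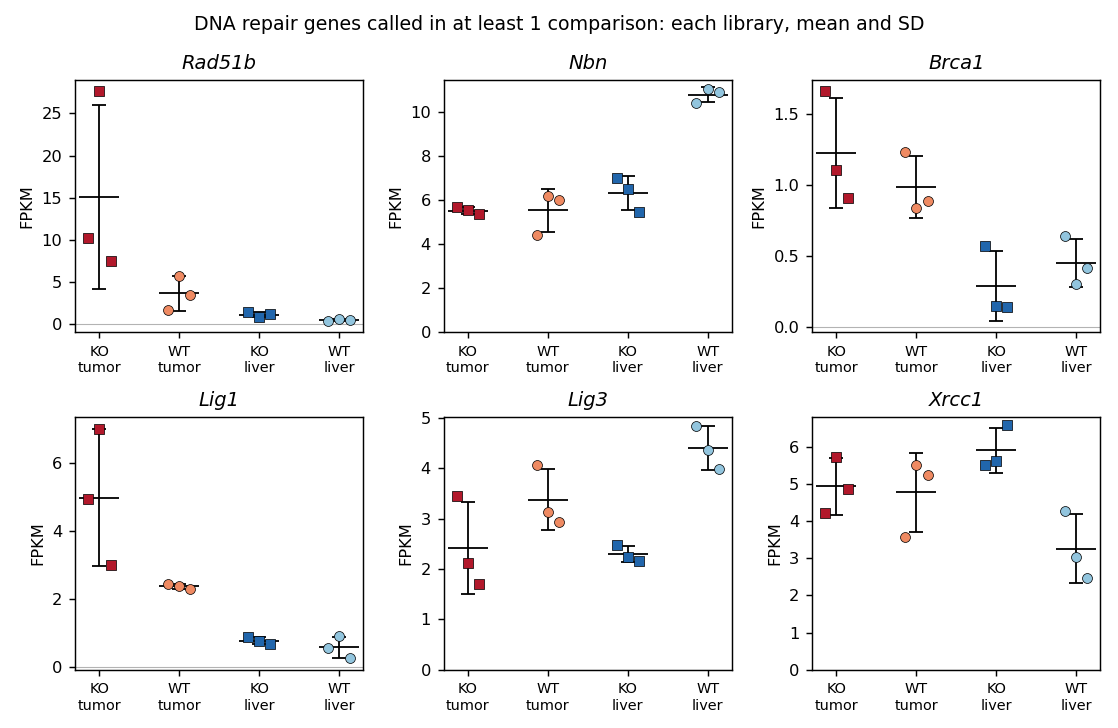
FPKM of the 6 repair genes called in at least 1 comparison, in each library (points), with group mean (line) and SD (bars, n = 3), KO tumor first and WT liver last. Rad51b, Brca1 and Lig1 are high in tumors, Nbn and Lig3 have their highest mean in WT liver, and Xrcc1 its lowest.

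Base excision and single-strand break repair held a pair of genes that went apart in KO liver. Xrcc1 (chr7:24546289-24573440, GRCm38) was at 4.20, 5.73 and 4.86 FPKM in KO tumors, 3.56, 5.50 and 5.24 in WT tumors, 5.50, 5.603 and 6.58 in KO livers, and 4.27, 3.03 and 2.46 in WT livers. Lig3 (chr11:82781108-82804274, GRCm38) was at 3.45, 2.11 and 1.69 FPKM in KO tumors, 4.06, 3.13 and 2.92 in WT tumors, 2.47, 2.24 and 2.16 in KO livers, and 4.85, 4.37 and 3.98 in WT livers. For Xrcc1 every KO liver exceeded every WT liver, and for Lig3 every KO liver was below them, whereas the tumor groups overlapped for both genes. In KO liver Xrcc1 rose by 0.72 ± 0.18 (adjusted p = 0.0381) and Lig3 fell (-0.71 ± 0.12, adjusted p = 0.0158).

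As a ratio of FPKM, which is scaled to transcript length, Xrcc1 over Lig3 was 1.22, 2.71 and 2.87 in KO tumors and 0.877, 1.76 and 1.79 in WT tumors. It was 2.23, 2.50 and 3.04 in KO livers, against 0.882, 0.693 and 0.616 in WT livers. The Xrcc1 FPKM was above that of Lig3 in every KO liver and below it in every WT liver. Lig3 overlaps another gene, Rffl, whose reads cannot be separated from its own, so the ratio need not be that of the transcripts. That the liver ratios do not overlap follows from the separation of both genes and adds nothing to it, and the tumor ratios overlapped. Between KO and WT tumors the difference was 0.05 ± 0.20 for Xrcc1 (adjusted p = 0.92) and -0.38 ± 0.23 for Lig3 (adjusted p = 0.446). The differences between the genotype effects in tumor and liver did not pass (-0.67 ± 0.27, adjusted p = 0.176 for Xrcc1, and 0.33 ± 0.26, adjusted p = 0.465 for Lig3).

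Of the exon length of Lig3, 25.1% overlaps Rffl on the other strand, and its reads could not be separated from those of Rffl. The entry that joined Rffl with Rad51d was at 9.52 to 10.9 FPKM in KO livers and 11.03 to 13.3 in WT livers (-0.18 ± 0.12, adjusted p = 0.321). The Xrcc1 call was kept without WT liver 1 and lost without any 1 of the other 5 libraries (adjusted p = 0.0561 to 0.113), and the Lig3 call was lost without WT liver 3 (-0.77, adjusted p = 0.0503).

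Lig1 (chr7:13277283-13311433, GRCm38) was at 4.95, 7.02 and 2.99 FPKM in KO tumors, 2.46, 2.38 and 2.30 in WT tumors, 0.882, 0.771 and 0.698 in KO livers, and 0.553, 0.915 and 0.281 in WT livers. Every tumor lay above every liver, and every KO tumor above every WT tumor. It rose in KO tumors over KO liver (1.69 ± 0.26, adjusted p = 0.0130) and in WT tumors over WT liver (1.11 ± 0.17, adjusted p = 0.00979), and the second call was kept without any 1 of its 6 libraries. The first was lost without KO liver 2 (0.0637) or 3 (0.0622). The difference between KO and WT tumors did not pass (adjusted p = 0.201), nor did that between the genotype effects in tumor and liver (0.58 ± 0.32, adjusted p = 0.312).

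Proliferation markers were also higher in tumors. Summed over 27 marker genes, none of them a repair gene of the set, their FPKM was 134, 284 and 80.3 in KO tumors, 119, 100.5 and 117 in WT tumors, 47.1, 37.1 and 42.9 in KO livers, and 40.3, 49.4 and 39.4 in WT livers. Among the 24 that were tested, 14 were higher and 0 lower in KO tumors than in KO liver, and 19 higher and 0 lower in WT tumors than in WT liver. Of all genes, 9.09% and 8.01% were called higher in these comparisons, and 5.17% and 8.96% lower. KO tumors ranked alike by Lig1, by Rad51b and by this sum, with KO tumor 2 highest and KO tumor 3 lowest. The WT tumors ranked differently by either gene than by the sum. The KO livers ranked as by the sum for Rad51b and otherwise for Lig1, and the WT livers as by the sum for Lig1 and otherwise for Rad51b. The part of dividing cells in the Lig1 and Rad51b results was not tested.

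**Figure D5:**
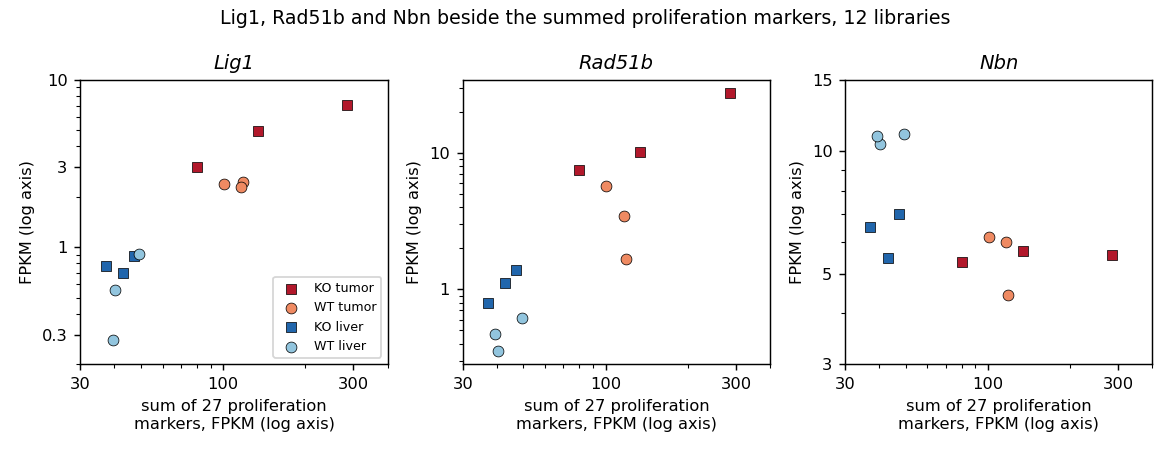
FPKM of Lig1, Rad51b and Nbn (log axes) against the FPKM summed over 27 proliferation markers (log axis), 1 point per library, 12 libraries. Livers lie between 37.1 and 49.4 on the horizontal axis and tumors between 80.3 and 284, and Lig1 is higher in all tumors than in all livers. Nbn separates KO from WT livers at like values of the sum.

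Parp1, which marks strand breaks and recruits Xrcc1, showed no called difference and stayed between 6.77 and 15.1 FPKM, with KO tumor 2 highest. Other genes of base excision changed in KO liver. Polb, the polymerase that fills the gap before ligation, was at 28.1, 28.5 and 38.1 FPKM in KO livers, against 14.4, 17.8 and 15.6 in WT livers (0.94 ± 0.15, adjusted p = 0.0145). Ung, which removes uracil, was at 9.08, 2.61 and 2.87 in KO livers, against 14.5, 21.2 and 18.2 in WT livers (-1.85 ± 0.39, adjusted p = 0.0246). Neither pair of groups overlapped. The Polb call was lost without WT liver 3 (0.0598), and the Ung call without KO liver 2 or 3 or WT liver 2 or 3 (0.0636 to 0.0873). Ung was lower in WT tumors than in WT liver as well (-1.55 ± 0.20, adjusted p = 0.00621), and Polb lower in KO tumors than in KO liver (-1.05 ± 0.22, adjusted p = 0.0255), a call lost without KO tumor 1 or any 1 of the KO livers (0.0656 to 0.0981). Of the 15 further base excision genes that were tested, 1 was higher and 3 lower in KO than in WT liver, 0 of either kind in KO than in WT tumors, 1 higher and 3 lower in WT tumors than in WT liver, and 1 higher and 1 lower in KO tumors than in KO liver. All-gene shares in these comparisons were 18.1%, 0.0771%, 17.0% and 14.3%.

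End joining gave no call. Xrcc5 and Xrcc6, which form the Ku ring on broken ends, were at 9.75 to 21.0 FPKM and 6.81 to 9.18 FPKM over the 12 libraries. Xrcc5 was at 12.4, 14.5 and 15.3 in WT tumors and 11.01, 10.7 and 10.1 in WT livers. The groups did not overlap, and the difference of 0.38 ± 0.12 missed the threshold (adjusted p = 0.0697), while without WT tumor 1 it was 0.46 (adjusted p = 0.0362). Xrcc6 was at 7.35, 7.62 and 6.81 in KO tumors, below all WT tumors and all KO livers, with no call. Xrcc4, the scaffold of the final ligation, and its ligase Lig4 overlapped between groups in all 4 comparisons, at 3.05 to 7.05 and 0.810 to 1.56 FPKM. Prkdc, the kinase that Ku recruits, stayed between 0.365 and 0.604 FPKM and was not tested.

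Nucleotide excision repair gave no call either. Ercc1, the partner of the incision nuclease, Xpc, the damage sensor of the genome-wide branch, and Ddb2, which helps it find lesions, overlapped between groups in all 4 comparisons. Xpa, which verifies the damage, was at 15.5, 19.3 and 21.9 FPKM in KO tumors and 10.1, 14.1 and 13.1 in WT tumors. The groups did not overlap, and the difference did not pass (adjusted p = 0.220). Of Ddb2's exon length, 23.8% overlaps Acp2 on the other strand.

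Of the damage signalling kinases, Atr, which responds to stalled forks, and Chek2, a kinase downstream of Atm, were tested. Chek2 was at 1.28, 1.65 and 0.606 FPKM in KO tumors, 1.51, 0.757 and 0.775 in WT tumors, 1.37, 0.846 and 0.660 in KO livers, and 0.619, 0.358 and 0.270 in WT livers. KO livers and WT tumors lay above the WT livers, and neither difference passed (0.46 ± 0.16, adjusted p = 0.0847 in KO liver, and 0.50 ± 0.19, adjusted p = 0.111 in WT tumors). Chek2 was tested because of its tumor levels, so nothing is read from the direction of its tumor difference. Atr stayed between 0.886 and 1.81 FPKM, with tumors above livers in both genotypes and no call. Fancd2, the crosslink repair protein, was at 0.0986 to 0.269 FPKM in KO tumors, 0.0829 to 0.265 in WT tumors, 0 to 0.0392 in KO livers and 0.0113 to 0.0365 in WT livers, too low to be tested.

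Beyond the 38 genes, 138 further genes of the same pathways were found and 118 tested. In KO over WT liver 11 were higher and 6 lower (14.4%), in KO over WT tumors limma called none (10 at an unadjusted p below 0.05), in WT tumors over WT liver 9 were higher and 6 lower (12.7%), and in KO tumors over KO liver 3 were higher and 1 lower (3.39%). The shares of all genes called in these comparisons were 18.1%, 0.0771%, 17.0% and 14.3%, above those of the repair genes in each. Pold4, a small subunit of the replicative polymerase that resynthesizes the gap in mismatch repair, had the smallest adjusted p among them in WT tumors over WT liver. It was at 52.4, 38.3 and 58.8 FPKM in KO tumors, 104.9, 66.3 and 66.5 in WT tumors, 25.8, 19.0 and 20.0 in KO livers, and 13.8, 17.2 and 15.2 in WT livers. Tumors lay above livers in both genotypes, by 1.16 ± 0.22 in KO mice (adjusted p = 0.0221) and 2.26 ± 0.20 in WT mice (adjusted p = 0.00180). The call in KO mice was lost without KO tumor 1 or any 1 of the KO livers (0.0568 to 0.0943). Changes in KO over WT liver were negatively related to exon length across 10831 genes (Spearman's rho of -0.30, with no p given because genes share libraries). With that trend removed, Lig3, Nbn and Xrcc1 were still called in liver and Rad51b was not (adjusted p = 0.0508).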

How the data were processed

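Poly(A) RNA of 12 mouse liver and tumor samples was sequenced with a kit that loses the strand, according to the labels' protocols. For each library the authors deposited gene names with FPKM values. The submitters' processing notes list TopHat2 2.1.1, Cufflinks 2.2.1 and the mm10 build, without options; the gene annotation was not given in the sources used here. Read depth is unknown, since low values do not step in whole reads (at most 1.53% of them fall on the commonest ratio), so no counting error can be given.

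Groups were taken from the labels. Of repeated names the entry with the highest mean was used. Entries with an FPKM of 1 or more in at least 3 of 12 libraries (11671) were analyzed as log2(FPKM + 1) with limma 3.58.1 in R 4.3.3, with a variance trend, two-sided, each comparison on its own 6 libraries and the interaction on all 12. Benjamini-Hochberg adjustment covered all 11671, with calls at an adjusted p below 0.05. The fits were tested on simulated data. Names were matched to GENCODE vM21 on GRCm38, the assembly of mm10, for 10831 tested entries (92.8%), and promoters were taken from RefSeq.

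The repair genes, the other lists and the naming rule were chosen with earlier results of these data known. Every repair gene of the set could be named, as could Setd2, up to 3 called genes with the smallest adjusted p from each further repair list in each comparison, and set marker genes. Alternatives were other pseudocounts, filters, scalings, weights, variance models, treatments of zeros and repeated names, removal of the trend with transcript length, a block for the replicate number, and leave-one-out fits. Chosen after seeing the data were the restrictions to names found once and to names matched to the annotation. Some further repair genes covered by the rule are counted but not reported here.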

Additional observations from a re-analysis of the deposited data

Results flagged for a closer look

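Only genes outside the set of 38 stood out, all from the lists of further repair genes, because the KO effect differed between tumor and normal liver. For Mus81, a nuclease that cuts branched recombination intermediates, the difference between the effects passed limma's test (-1.12 ± 0.23, adjusted p = 0.0379). It was the only 1 called of the 118 further repair genes tested (0.847%), beside 2.08% of all genes. Mus81 was at 2.64, 2.94 and 2.74 FPKM in KO tumors, 3.52, 3.52 and 4.63 in WT tumors, 4.26, 4.12 and 5.11 in KO livers, and 2.83, 2.41 and 1.63 in WT livers. The call was lost without any 1 of 8 of the 12 libraries, namely KO tumors 1 and 2, WT tumors 2 and 3, KO livers 2 and 3, and WT livers 2 and 3 (0.0536 to 0.0998). KO tumors lay below WT tumors and KO livers above WT livers.

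For 3 genes every KO library lay on opposite sides of the WT libraries in the 2 tissues, although the difference between the effects did not pass the test. It was -1.10 for Pold4 (adjusted p = 0.0783), with KO above WT in liver and below WT in tumors. It was 0.40 for Rad17, the loader of the checkpoint clamp (adjusted p = 0.196), and 0.68 for Smug1, a uracil glycosylase (adjusted p = 0.0989), with KO below WT in liver and above WT in tumors. The tumor gaps of Rad17 and Smug1 were narrow. The lowest KO tumor was at 3.86 and 2.47 FPKM, and the highest WT tumor at 3.84 and 2.43. KO and WT groups did not overlap for 42.6% of all genes in liver and 23.9% in tumors. The share of all genes on opposite sides was not counted, so nothing is read from these 3 genes. Groups of 3 libraries are too small to test a single library as an outlier.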

How the results depend on the processing

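Counts of called repair genes moved by over 1.5 times as follows. KO against WT liver (4) had 2 with no filter, 1 with a mean FPKM of 5 as filter, 0 with the replicate number as a block and 0 to 3 without 1 library. KO against WT tumors (0) had 1 (Rad51b, adjusted p = 0.0306) in 1 fit of all 12 libraries and 0 without any 1 library. WT tumor against WT liver (3) had 6 rescaled to a common sum, 7 with array weights, 5 with the length trend removed and 1 to 5 without 1 library. KO tumor against KO liver (3) had 1 with no filter, 1 with the mean filter and 0 to 4 without 1 library. The interaction (0) had 0 to 1 without 1 library. The mean filter took Xrcc1, Lig3, Lig1 and Brca1 out of testing, so their calls under it were removed rather than lost. The cause of the other moves was not tested. Over all genes the calls were 2113 (153 to 2172 under alternatives), 9 (0 to 1017), 1981 (454 to 3024), 1664 (129 to 3340) and 243 (7 to 1368) in the same order. Same-numbered libraries did not deviate together throughout (r of -0.28 to 0.35 in the 12 pairs), but KO tumor 1 and WT tumor 1 did in part (0.35). The replicate number is not stated to pair samples, so the numbers are not taken to pair them. In KO against WT liver the block left 153 calls among all genes and 0 among the repair genes. Values were counted for 23 member differences, which were called, near the threshold, large, or interactions of called genes. Of 348 values under alternatives, 310 kept their status, called or not, 23 lost a call and 15 gained one. Of 174 with a library left out, 144 kept it, 27 lost a call and 3 gained one. No sign was reversed. Kept status includes differences that were never called, so it does not count calls kept. With a library left out, the liver calls of Rad51b and Xrcc1 and the KO tumor call of Brca1 each held in 1 of 6 fits. The WT tumor call of Lig1 held in all 6. Of the other 112 member differences, 49 changed sign under some alternative and 3 were called under some. Depth is unknown, which limits the genes below 1 FPKM most.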

Other observations

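Subunits of the checkpoint clamp, a ring loaded at damaged DNA, differed in opposite directions in KO liver. Rad9a was at 2.47, 3.29 and 4.24 FPKM in KO livers, against 1.34, 1.59 and 1.03 in WT livers (0.89 ± 0.18, adjusted p = 0.0232 with limma). Rad1 was at 4.48, 3.49 and 3.84 FPKM in KO livers, against 5.54, 8.40 and 8.88 in WT livers (-0.78 ± 0.19, adjusted p = 0.0342). Neither pair of groups overlapped. In WT tumors over WT liver, Rad9a was higher (0.57 ± 0.15, adjusted p = 0.0424) and Rad1 lower (-0.86 ± 0.19, adjusted p = 0.0274), a comparison that shares the WT livers with the first. Between KO and WT tumors the differences were 0.46 ± 0.34 for Rad9a (adjusted p = 0.535) and -0.28 ± 0.16 for Rad1 (adjusted p = 0.430). In KO liver the Rad9a call was kept without KO liver 1 alone (0.0519 to 0.0846 without any 1 of the other 5 libraries), and the Rad1 call was lost without KO liver 2 or 3 or WT liver 2 or 3 (0.0877 to 0.112). In WT tumors the Rad9a call was lost without any 1 library (0.0607 to 0.132), and the Rad1 call without WT liver 2 or 3 or WT tumor 3 (0.0713 to 0.102).

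Of the crosslink repair genes beside Fancd2, 10 were tested and 2 were higher in KO than in WT liver (20%, beside 18.1% of all genes). Fance, a subunit of the complex that modifies Fancd2, was at 4.74, 4.76 and 4.28 FPKM in KO livers, against 2.57, 2.88 and 2.46 in WT livers (0.62 ± 0.12, adjusted p = 0.0197), and its call was lost without KO liver 2 (0.0560) or WT liver 3 (0.0741). Ddb1, the partner of Ddb2 in the ligase that marks damaged chromatin, was at 143, 105 and 165 FPKM in KO livers, against 85.3, 87.8 and 69.8 in WT livers (0.74 ± 0.19, adjusted p = 0.0389). Ercc6, which senses stalled transcription, was lower in KO liver (-0.46 ± 0.11, adjusted p = 0.0343). The Ddb1 call was kept without KO liver 2 alone (0.0734 to 0.129 otherwise), and the Ercc6 call was lost without any 1 library (0.0572 to 0.0912).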
